A study of Drosophila melanogaster with 2 samples.

Results

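The genes described here are those for the translation factors of *Drosophila melanogaster*, taken as all protein-coding genes whose symbol starts with eIF (eukaryotic initiation factor), eEF (elongation factor) or eRF (release factor). The rule found 54 genes among the 13945 protein-coding genes on the 6 chromosome arms used: 44 initiation, 8 elongation and 2 release factor genes. They lie dispersed, with 6 on 2L, 13 on 2R, 12 on 3L, 15 on 3R, 1 on 4 and 7 on X. The rule uses symbols and no measured value, but the set was chosen with earlier results of these data known.

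Chromatin immunoprecipitation and sequencing (ChIP-seq) had been done on whole embryos of both sexes, aged 0 to 24 h, from a transgenic line in which CG12236 carries enhanced green fluorescent protein (eGFP) at its C terminus. CG12236 is a protein with a BTB domain and zinc fingers, and an antibody against GFP pulled down the fusion. The design has 1 group of 2 biological replicates, numbered 1 and 3, so it holds no contrast between conditions. Whole embryos mix all cell types and stages of embryogenesis, the labels do not name the promoter that drives the fusion, and no control library was analysed here.

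Every cell makes protein with these factors. Initiation factors load the small ribosomal subunit with initiator tRNA, bring it to the capped end of an mRNA and find the start codon, elongation factors deliver aminoacyl-tRNA and move the ribosome along, and release factors free the finished chain at a stop codon. Many of the genes are expressed in nearly all cells, and several have gained paralogues whose known use in flies is restricted, often to the testis.

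4 lists of regions on the dm6 assembly were used. Each replicate has its own 30000 regions, both replicates pooled gave another 30000, and the irreproducible discovery rate (IDR) procedure, which asks how well replicates rank the same regions, left an optimal list of 2426. Those 2426 are the strongest regions of the pooled list. Signal is the authors' value for a region, of unstated scale, and ran between 70.5 and 1067 in the IDR list, with a floor of 16.9 in the pooled list, 8.50 in replicate 1 and 11.4 in replicate 3. Ranks count from 1 for the strongest region. Signals and ranks order genes within a list, and values of different lists are set side by side as a description only. The read depth is unknown, and each 30000-region list includes background, so a region of low rank is weak evidence of binding. A gene has a promoter region where a summit lies within 500 bp of any of its annotated starts, and its value is that of its strongest such region, taken in each list separately, so the values of a gene in different lists can come from different summits.

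The sequences before 5 of these genes show the most frequent of the words searched in their promoters, the DNA replication-related element (DRE), the site of the factor Dref. Each run is on the gene's own strand of the Release 6 genome (dm6), ends at the base before an annotated start, and has TATCGATA in capitals. eEF1gamma is shown because its region was the strongest of the elongation factors, eIF3a as the weakest of the IDR genes, and the other 3 because they hold the same word and had weak regions.

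eEF1gamma, chr3R:29220092-29220171, plus strand: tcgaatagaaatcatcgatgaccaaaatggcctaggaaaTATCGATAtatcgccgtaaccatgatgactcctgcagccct

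eIF3a, chr3R:4433896-4433964, minus strand: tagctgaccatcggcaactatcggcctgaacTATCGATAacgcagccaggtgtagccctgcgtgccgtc

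eEF1delta, chr2L:10232427-10232506, plus strand: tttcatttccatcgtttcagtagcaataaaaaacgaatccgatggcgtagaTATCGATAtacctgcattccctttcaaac

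eRF1, chr3L:20348275-20348354, plus strand: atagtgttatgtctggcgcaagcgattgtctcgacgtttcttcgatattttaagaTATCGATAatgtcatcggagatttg

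eIF4E6, chr3R:29027175-29027235, minus strand: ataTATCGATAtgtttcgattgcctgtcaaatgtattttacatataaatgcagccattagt

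The first base of the word lies 41 bases before the start in eEF1gamma, 38 in eIF3a, 29 in eEF1delta, 25 in eRF1 and 58 in eIF4E6. A second kind of start is the TCT initiator of ribosomal protein genes, a pyrimidine stretch at the start itself. Its letters, TCTTT, are in capitals in the next 3 runs, each of 15 bases before the start and 15 from it on. Their C lies 4 bases after the annotated start base in eEF2 and eIF4A and 5 in eIF3i, so the letters are near that base and not at it. The runs are shown because eEF2 had an IDR region at this start, whereas eIF3i and eIF4A, with like letters, did not.

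eEF2, chr2L:21682102-21682131, minus strand: gtcgctgcagcgcctcgcTCTTTcctgtcg

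eIF3i, chr2L:4967761-4967790, minus strand: taggccacggtcacactgcTCTTTtggcgt

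eIF4A, chr2L:5981749-5981778, plus strand: cttttgcaagatggagccTCTTTtgcttgg

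The first comparison asked how often CG12236-eGFP regions lay at these promoters. An IDR summit stood within 500 bp of a start in 10 of the 54 translation factor genes (18.5%), against 1429 of all 13945 genes (10.2%). A pooled-list summit did so in 43 (79.6%), against 51.8% of all genes. The set therefore stood above the background at both depths of the list, though the IDR share rests on 10 genes. The 44 initiation factor genes, most of the set, lay nearer to the background, with an IDR summit in 6 (13.6%). Where a region was present it was of ordinary strength, with a median signal of 40.9 at rank 6254 in the translation factor genes and 38.1 at rank 7123 in all genes with a region. Genes are not replicates of a condition, so these shares and medians are descriptions without a test.

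Both replicates held nearly all of the 10. Among the 2426 strongest regions of replicate 1 and also among those of replicate 3, 9 translation factor genes had a promoter summit (16.7%, against 7.33% of all genes), and eIF3a was the one left out. With the whole 30000-region lists, 37 genes had a region in both replicates (68.5%, against 39.6%). Over those 37 genes the signals of the replicates had a Spearman rho of 0.732, against 0.654 over the 5524 such genes in all, where neighbouring genes can share a region. The strongest summits of the replicates lay within 100 bp of each other in 21 of the 37 (56.8%), much as in 3061 of those 5524 genes (55.4%), and the other genes may owe their values to different regions. Over the 21 genes the signal in replicate 3 was between 0.652 times that in replicate 1, at eIF2Bgamma, and 2.53 times, at eIF6, with a median of 1.45 (1.54 over the 3061 genes).

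**Figure D1:**
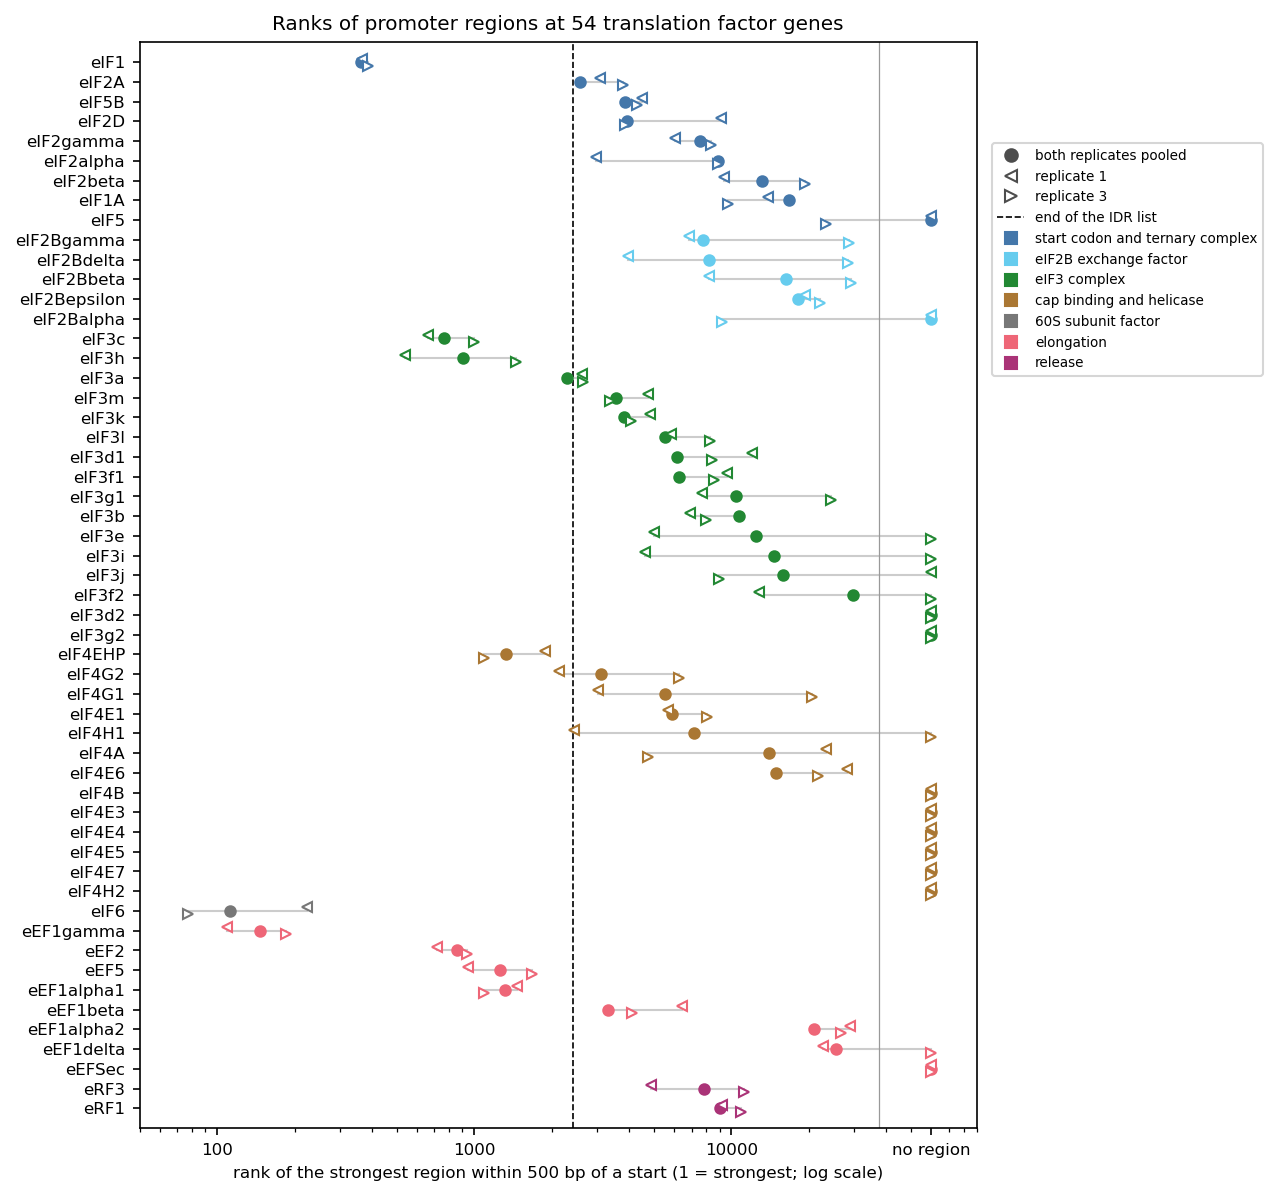
Rank of the strongest promoter region (log axis, 1 is strongest) for each of the 54 genes, coloured by role, in the pooled list (circles), replicate 1 (left-pointing) and replicate 3 (right-pointing triangles), with genes lacking a region at the right. The 10 genes left of the dashed line, which marks the end of the IDR list at rank 2426, are those with an IDR summit, and eIF3a has its replicate triangles just right of the line.

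In the pooled list elongation factor genes had stronger regions than initiation factor genes, and release factor genes did not. Of the 44 initiation factor genes 6 had an IDR summit at the promoter (13.6%, against 10.2% of all genes). Of the 8 elongation factor genes 4 had one, and with the release factors, none of which had one, the share was 4 of 10 (40.0%). With summits at another gene's start left out, 2 of the 44 initiation factor genes kept one, against 4.67% of all genes, and elongation stayed at 4. That alternative was chosen after seeing the data. The median signal in the pooled list was 39.4 at rank 6718 for the 34 initiation factor genes with a region and 58.6 at rank 3305 for the 9 elongation and release factor genes with one. For the 7 elongation factor genes alone it was 98.7 at rank 1321, and for the 2 release factor genes 34.8.

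The replicates did not give this difference equally. In replicate 3 the median rank was 8310.5 for initiation factor genes and 2896 for elongation and release factor genes. In replicate 1 the medians were 5001 and 4854, so the classes with release factors included lay side by side there. The elongation factor genes alone had a median rank of 1464 in replicate 1 and 1383 in replicate 3, and 4 of the 8 were among the strongest 2426 of both. The cytosolic ribosomal protein genes, taken by symbol, had a larger share with an IDR summit than either class, 57 of 92 (62.0%), at a median pooled rank of 1393 that lay close to that of the elongation factor genes.

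**Figure D2:**
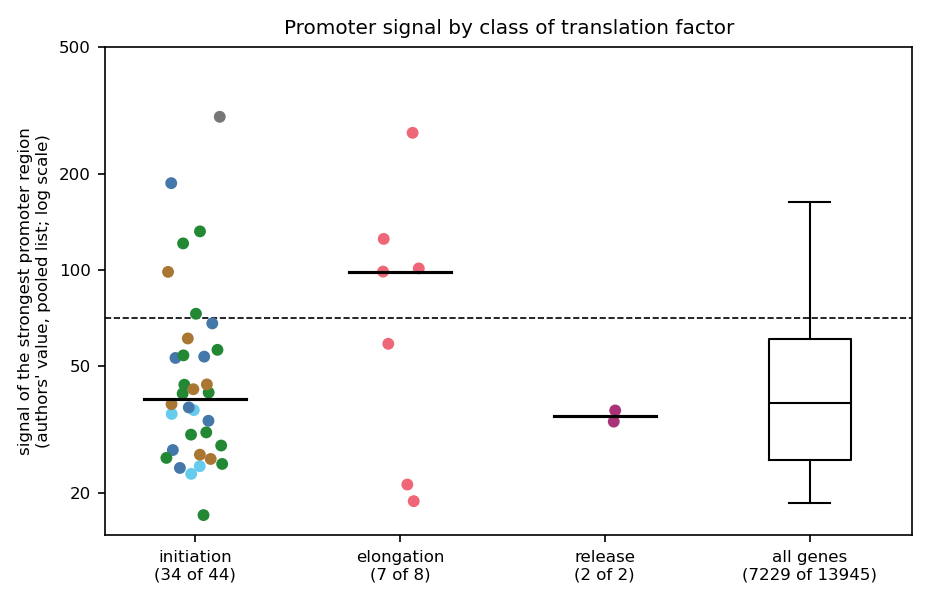
Signal of the strongest promoter region in the pooled list (authors' value, log axis) for initiation, elongation and release factor genes, with a bar at each median and colours by role as in the plot of ranks. The box for all genes spans 25.4 to 60.8 around a median of 38.1, with whiskers at the 5th and 95th percentiles (18.5 and 163), and 4 of the 7 elongation factor genes sit above the dashed floor of the IDR list.

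Among the elongation factors, eEF1gamma, a subunit of the complex that recharges eEF1A with GTP, had the strongest region, at chr3R:29220036-29220285. Its signal was 269 (rank 147) in the pooled list, 109 (rank 109) in replicate 1 and 158 (rank 185) in replicate 3. The summit fell on the start itself, at a distance of 0 bp, just downstream of the DRE shown above.

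eEF2, the translocase that moves the ribosome by a codon, had a region at chr2L:21681907-21682330 with a signal of 125 (rank 857), and 52.1 (rank 715) in replicate 1 and 76.5 (rank 934) in replicate 3. Its summit lay 3 bp upstream of the start, at the TCTTT start shown above. eEF5, the fly factor otherwise called eIF5A, which helps ribosomes past difficult peptide bonds, had 101 (rank 1263) at chr2R:24057588-24058011, 2 bp downstream of a start, with 46.4 (rank 943) in replicate 1 and 55.2 (rank 1676) in replicate 3. These 3 regions were thus centred on starts in every list, since no replicate's summit lay more than 44 bp away.

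eEF1alpha1, the main carrier of aminoacyl-tRNA to the ribosome, had 98.7 (rank 1321) at chr2R:11891863-11892286, with 37.5 (rank 1464) in replicate 1 and 70.1 (rank 1090) in replicate 3. Its summit lay 47 bp upstream of an internal start and inside an intron of the longer transcripts. The first start listed for the gene is thus not the one with the IDR region.

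The other elongation factor genes were weaker. eEF1beta, another exchange subunit, had 58.6 (rank 3305), with the summit 410 bp into the gene in a coding exon. eEF1alpha2 had 21.2 (rank 20904) and eEF1delta 18.8 (rank 25465), both near the floor of the pooled list, although eEF1delta holds the DRE letters shown above. eEFSec, which delivers selenocysteine, had no region in any list. Subunits of the same exchange complex thus ranged between rank 147 and rank 25465.

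The release factors were ordinary. eRF3, the GTPase of termination, had 36.2 (rank 7803) in the pooled list. Its strongest regions were 21.2 (rank 4854) in replicate 1 and 19.3 (rank 11214) in replicate 3, with summits 2541 bp apart at different starts. eRF1, which reads the stop codon, had 33.4 (rank 9002), with 15.9 (rank 9186) in replicate 1 and 19.6 (rank 10887) in replicate 3 at summits 649 bp apart. The replicates thus did not hold the same strongest region at either gene. Both pooled summits also lay at the start of a neighbour, SC35 for eRF3 and Rbbp5 for eRF1.

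Among the initiation factors the strongest region belonged to eIF6, which keeps the large ribosomal subunit apart from the small one until it is mature. At chr2R:23850277-23850539 the signal was 302 (rank 112) in the pooled list, 85.8 (rank 223) in replicate 1 and 217 (rank 77) in replicate 3. The summit lay 109 bp upstream, at the start of no other gene. It was the highest of all 54 genes in the pooled list and in replicate 3, and second to eEF1gamma in replicate 1.

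An IDR summit stood at the promoters of 10.2% of all genes. Of the 9 genes for start codon recognition and the ternary complex of eIF2, GTP and initiator tRNA, 1 had one (11.1%). This was eIF1, the guardian of start codon choice, with 187 (rank 362) at chr3L:3222926-3223090, 70.8 (rank 365) in replicate 1 and 118 (rank 387) in replicate 3. Its summit lay 327 bp upstream and nearer to the start of RpL28, a ribosomal protein gene, so that region cannot be assigned to eIF1 alone. eIF2A, an alternative initiator tRNA factor in mammals, came next with 67.9 (rank 2590), with 26.2 (rank 3083) in replicate 1 and 34.4 (rank 3775) in replicate 3, just outside the IDR list.

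The remaining genes of that role spread over the ordinary range. eIF5B, which joins the subunits, had 53.4 (rank 3871) and eIF2D, an alternative factor for tRNA delivery and recycling, 52.9 (rank 3932). The subunits of eIF2 had 37.0 (rank 7543) at eIF2gamma, 33.6 (rank 8909) at eIF2alpha and 27.2 (rank 13147) at eIF2beta. The eIF2gamma summit lay nearer to a neighbour's start, with starts of Set and Su(var)3-9 within 500 bp. eIF1A had 23.9 (rank 16763), at a summit shared with the start of Vps39. eIF5, the GTPase activator of eIF2, had a region in replicate 3 only (13.2, rank 23355). The 3 subunits of 1 complex thus all sat outside the IDR list, as did most genes, since 10.2% of all genes had an IDR summit.

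None of the 5 genes for eIF2B, the exchange factor that recycles eIF2 and the target of the integrated stress response, had an IDR summit within 500 bp. Of all genes 10.2% had one. In the pooled list eIF2Bgamma had 36.3 (rank 7768), eIF2Bdelta 35.3 (rank 8153), eIF2Bbeta 24.2 (rank 16359) and eIF2Bepsilon 22.9 (rank 18190), while eIF2Balpha had only a region of replicate 3 (21.3, rank 9208). The pooled summit of eIF2Bepsilon lay nearer to the start of Ocrl, and that of eIF2Bdelta also lay at the start of roh. The median rank was 7531 in replicate 1, over 4 of the genes, and 28472 in replicate 3, over all 5, and the summits of eIF2Bbeta lay 502 bp apart between the replicates. One of the strongest regions of the experiment lay just beyond the window: a summit at -682 bp, upstream of the start of eIF2Bbeta, had rank 7 and a signal of 771.

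The 16 eIF3 genes encode a large scaffold on the small subunit and its paralogues. 3 had an IDR summit (18.8%, against 10.2% of all genes) and 14 a pooled one (87.5%, against 51.8%). eIF3c, a core subunit, had 132 (rank 764) at chr2R:17665412-17665835, with 54.3 (rank 661) in replicate 1 and 73.8 (rank 994) in replicate 3, and its summit lay 54 bp upstream at no other gene's start.

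eIF3h had 121 (rank 904) at chr2L:5052289-5052712, with 58.8 (rank 537) in replicate 1 and 59.9 (rank 1452) in replicate 3. That summit lay 279 bp downstream, in an intron and also at the start of senju, and a weaker IDR region (74.6, rank 2208) sat 9 bp from a start of eIF3h. eIF3a, another core subunit, had 72.8 (rank 2303) at chr3R:4433735-4434158, with 28.4 (rank 2626) in replicate 1 and 42.3 (rank 2659) in replicate 3. It was the weakest of the 10 and in neither replicate's strongest 2426. Its summit, 52 bp upstream, was nearer to the start of CG1074.

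The other eIF3 subunits fell off gradually. eIF3m had 56.1 (rank 3564), eIF3k 53.9 (rank 3810), eIF3l 43.6 (rank 5544), eIF3d1 41.2 (rank 6160), eIF3f1 40.9 (rank 6254), eIF3g1 30.9 (rank 10408) and eIF3b 30.4 (rank 10748). eIF3e, eIF3i, eIF3j and eIF3f2 followed between rank 12417 and rank 29603, each with a promoter region in 1 replicate only. eIF3d2 and eIF3g2 had none. Genes of this role thus ranged across nearly the whole list, and without the paralogue eIF3f2 between rank 764 and rank 15949. The pooled summit of eIF3l lay nearer to the start of Nrx-IV, and that of eIF3m also lay at the start of CG8323.

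Cap binding and mRNA unwinding had 1 of 13 genes with an IDR summit (7.69%, against 10.2% of all genes) and 7 with a pooled one (53.8%, against 51.8%). The gene with it was eIF4EHP, a cap-binding repressor of initiation that cannot bind eIF4G and acts with Bicoid on caudal mRNA. Its signal was 98.5 (rank 1329) at chr3R:24108860-24109283, with 33.2 (rank 1878) in replicate 1 and 70.1 (rank 1089) in replicate 3. The summit lay 112 bp upstream, shared with the start of CG18428, and a further IDR region (90.5, rank 1580) lay 316 bp upstream.

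The genes of the cap complex proper were outside the IDR list. eIF4G2 had 60.9 (rank 3099), and was among the strongest 2426 in replicate 1 (31.4, rank 2132) but not in replicate 3 (25.7, rank 6239). eIF4G1, the scaffold, had 43.7 (rank 5532) and eIF4E1, the cap-binding subunit, 42.2 (rank 5900). The helicase eIF4A had 26.3 (rank 14066), with 29.9 (rank 4742) in replicate 3 at the same summit. Its strongest region in replicate 1 was another, 398 bp away, with 9.90 (rank 23417). eIF4H1, a helicase cofactor, had 37.9 (rank 7182) and 29.4 (rank 2450) in replicate 1 but no region in replicate 3.

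eIF4B, another helicase cofactor, had no region, and its gene at chr3L:27842669-27858271 lies beyond the last region that any list gives on 3L, which ends at 27294902. There are 2 protein-coding genes beyond that point on 3L, eIF4B among them. Its empty entry therefore describes a stretch in which the lists hold nothing.

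The second comparison set the broadly used gene of each paralogue family beside its relatives. Which gene is broadly used is background knowledge, since expression was not measured. A paralogue here is any other gene of the family. The repressor eIF4EHP is counted as one, without a restricted use being shown for it. All 7 broadly used genes (eIF4E1, eIF4G1, eIF3d1, eIF3f1, eIF3g1, eEF1alpha1 and eIF4H1) had a pooled region, against 5 of 12 paralogues (41.7%), and all genes stood at 51.8%. The median rank was 6160 for the broadly used genes, within a range of 1321 to 10408, and 14951 for the 5 paralogues with a region, within 1329 to 29603. Regions in both replicates were found for 6 of the 7 broadly used genes (85.7%) and 4 of the 12 paralogues (33.3%), against 39.6% of all genes.

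IDR summits did not separate them, though the count for paralogues rests on eIF4EHP alone. In the IDR list each class had 1 gene, eEF1alpha1 among 7 (14.3%) and eIF4EHP among 12 (8.33%), close to the 10.2% of all genes. In 10 of the 12 pairings the broadly used gene ranked higher in the pooled list or was alone in having a region. In 2 the paralogue ranked higher. Both genes had a pooled region in only 5 pairings, so the other pairings repeat the count of regions. Among those 5, the broadly used gene ranked higher than eIF4E6, eIF3f2 and eEF1alpha2. The 2 that went the other way were eIF4EHP over eIF4E1 and eIF4G2, a testis partner of eIF4E3 known from male meiosis, over eIF4G1. Both pooled summits also lay at the start of a neighbour, CG18428 for eIF4EHP and CG33111 for eIF4G2, so neither region can be assigned to the paralogue alone. The same held for eIF4E6, with CG1951, and for the broadly used eIF4H1, with CG34015. The widest contrast in pooled signal among genes with a region was eEF1alpha1 at 98.7 against eEF1alpha2 at 21.2, its paralogue of late development. The 12 pairings share eIF4E1 in 6 cases, so they are not independent.

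The genes with no region in the pooled list were mostly paralogues. They were eIF4E3, eIF4E4, eIF4E5, eIF4E7, eIF3d2, eIF3g2 and eIF4H2, with eIF4B, eEFSec, eIF5 and eIF2Balpha. Of these 11 only eIF5 and eIF2Balpha had a region in a replicate list.

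**Figure D3:**
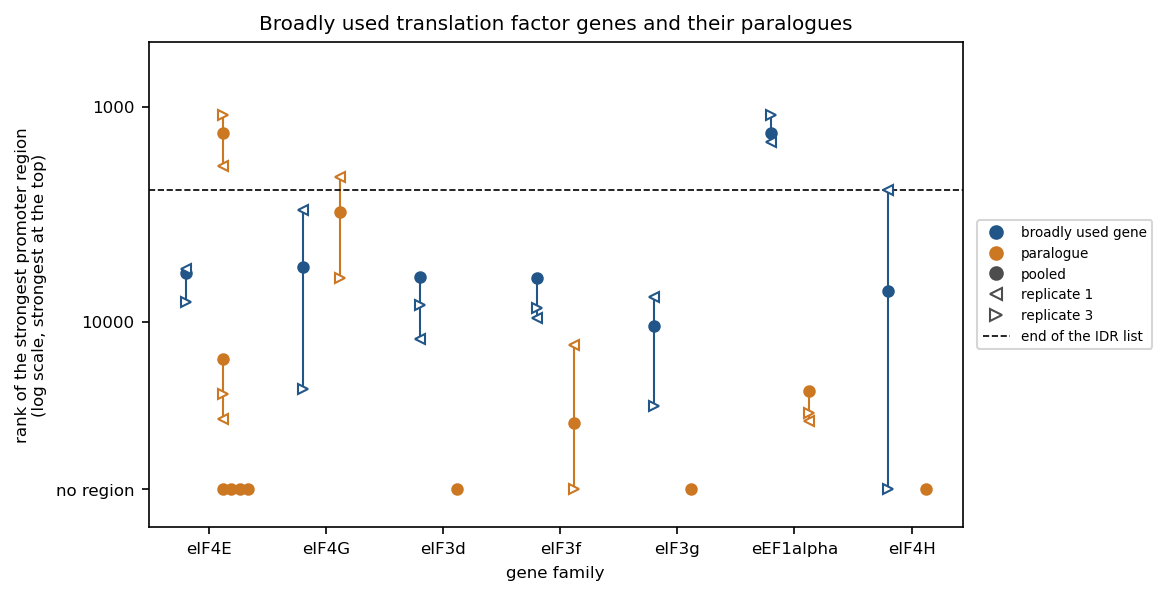
Rank of the strongest promoter region (log axis, strongest at the top) for the broadly used gene of each of 7 families, drawn left, and its paralogues, drawn right, with the pooled list as circles and the replicates as triangles. Every broadly used gene has a pooled region, while 7 of the 12 paralogues lie at the bottom with none, and eIF4EHP is the paralogue whose pooled rank lies above the end of the IDR list. The triangle of eIF4G2 for replicate 1 (rank 2132) lies above it too.

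In the pooled list the strongest summit of each gene was placed differently in the classes, on few genes. The 6 initiation factor genes with an IDR region had their strongest summits at a median of -81.5 bp from the nearest start of the gene (negative is upstream), none of them within 50 bp, although the weaker IDR region of eIF3h lay 9 bp from a start, and 4 of the 6 (66.7%) lay within 500 bp of another gene's start too. The 4 elongation factor genes had theirs between 47 bp upstream and 2 bp downstream, all within 50 bp, and none shared. The replicates did not keep this split. In replicate 3 eEF1alpha1 lay 74 bp and eIF3a 49 bp upstream, and in replicate 1 eIF3c lay 8 bp upstream. Elongation factor genes also have a median of 2 annotated starts, against 1 for initiation factor genes and for all genes. The part of this in the distances was not tested. All genes with an IDR region had a median of -121 bp, with 15.8% within 50 bp and 54.9% shared. The ribosomal protein genes had 75.4% of summits within 50 bp, so the elongation factor genes lay nearer to those than to genes at large. With weaker regions included, 16 of the 43 translation factor genes (37.2%) had their strongest summit within 50 bp, against 20.8% of all genes. By class this was 11 of 34 initiation factor genes (32.4%) and 5 of 9 elongation and release factor genes (55.6%), a narrower difference than among the IDR regions.

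**Figure D4:**
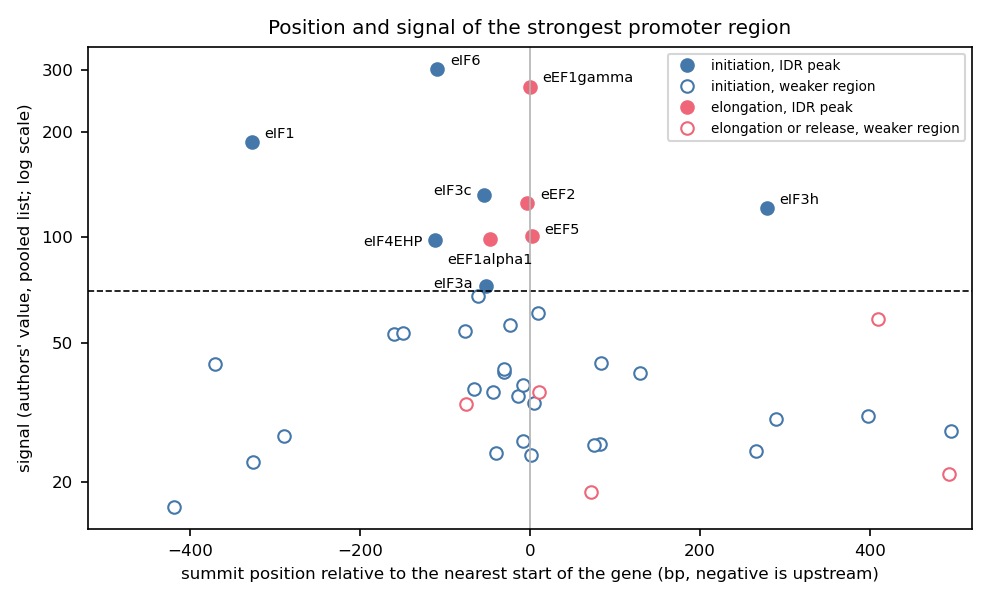
Signal (authors' value in the pooled list, log axis) against the summit's distance from the nearest start of the gene in bp, negative upstream, for 43 genes with a promoter region. The 4 filled elongation marks stand between -47 and 2 bp, while the 6 filled initiation marks stand between -327 and 279 bp, and the dashed line is the floor of the IDR list at 70.5.

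IDR regions within the genes but over 500 bp from every start were few. An IDR summit of this kind stood in 1 of 54 genes (1.85%), against 4.85% of all genes. It lay in an intron of eIF4EHP, at rank 1628, and both replicates held it, at rank 2377 (29.8) with the summit 22 bp away in replicate 1 and at rank 1514 (58.5) with the summit 9 bp away in replicate 3. Syx1A and CG10694 also overlap eIF4EHP, but neither of them covers that summit. eIF4EHP spans 45.9 kb, against a median of 1.97 kb for the 54 genes and 2.17 kb for all genes, and of the 663 genes over 30 kb 33.8% had such a summit.

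Weak regions over coding exons were more common. A pooled summit in a coding exon and over 500 bp from every start of the gene stood in 19 of the 54 genes (35.2%), against 21.5% of all genes. Coding exon summits nearer to a start were left out of all counts here. Initiation factors had 13 of 44 (29.5%) and elongation factors 6 of 8. The elongation factor regions so counted were weak, led by eEF1gamma at rank 10780 (30.4) and eEF1delta at rank 13140 (27.2). The stronger coding exon summit of eEF1beta (58.6, rank 3305) lay 410 bp from its start and was not counted. Of the 8 genes 2, eEF1alpha1 and eEF1delta, had a counted region in both replicates. For the 54 genes the share with a coding exon region in both replicates was 16.7%, against 10.2% of all genes. Among initiation factor genes the strongest were at eIF3f1 (44.6, rank 5310) and eIF3a (36.0, rank 7906). Transcript abundance was not measured, so the part of transcription in these weak regions was not tested.

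Promoter letters were counted between 250 bases before and 50 bases after the starts, on both strands unless stated. The DRE word TATCGATA stood in 16 of the 54 genes (29.6%), against 10.2% of all genes and 30.4% of ribosomal protein genes. It was found in 4 of the 10 genes with an IDR region (eIF6, eEF1gamma, eIF3c and eIF3a) and in 12 of the 44 without (27.3%), so weak genes such as eEF1delta and eRF1 carry it as well. Among all genes with an IDR region it stood in 15.1%.

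TCTTT with its C within 5 bp of a start, on the sense strand, stood in 5 genes (9.26%): eEF2, eEF5, eIF3i, eIF3m and eIF4A. The share was 2.23% in all genes and 48.9% in ribosomal protein genes. At the very starts with these letters, the strongest pooled region had rank 857 at eEF2, 3 bp away, and rank 1263 at eEF5, 53 bp away and nearer to another start of the gene. It had rank 3564 at eIF3m, 228 bp away, rank 14684 at eIF3i, 82 bp away, and rank 19722 (21.9) at eIF4A, 138 bp away. The higher-ranked eIF4A region lies at another start. The same letters thus occurred with strong and weak regions.

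The other words were counted in the same way. The core of motif 1, GGTCACAC, stood in 16.7% of translation factor genes against 8.71% of all genes, the core of motif 7, GGCAACG, in 13.0% against 6.35%, and the core of motif 6, GGTATTTT, in 7.41% against 6.26%. TATAAA on the sense strand between 45 and 15 bases before a start stood in 3.70% against 10.6%, and the E-box CAGCTG in 11.1% against 22.3%. GAGAGAG stood in 9.26% against 9.08%. The word CACTGTGC, chosen from an earlier look at these peaks, was in eEF5 and eIF2D (3.70%, against 2.19% of all genes). A match is a run of letters and not evidence of a bound factor.

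Other genes of translation came from a list of 28 regulators and ribosome-associated factors, written with earlier results of these data known. Their shares at promoters were much like those of the 54, with 6 having an IDR summit (21.4%) and 23 a pooled one (82.1%). The strongest was larp, which encodes an RNA-binding protein that acts on mRNAs of the translation machinery, with 522 (rank 29) in the pooled list, 156 (rank 34) in replicate 1 and 367 (rank 27) in replicate 3. Thor, the fly 4E-BP that holds eIF4E from eIF4G, had 99.3 (rank 1312), with 53.4 (rank 680) and 49.9 (rank 2018). larp and Thor were thus among the strongest 2426 in both replicates.

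Rack1, a scaffold on the small subunit, was too, with 118 (rank 965) in the pooled list, 43.0 (rank 1114) in replicate 1 and 74.8 (rank 969) in replicate 3, at a summit shared with the start of mts. Gcn2, the eIF2alpha kinase of amino acid shortage, had 83.4 (rank 1827), with 46.0 (rank 964) in replicate 1 and 44.2 (rank 2451) in replicate 3, at a summit shared with Ugt35D1. The RNA helicase bel had 73.7 (rank 2259), with 25.7 (rank 3211) in replicate 1 and 46.0 (rank 2279) in replicate 3. NAT1, an eIF4G relative, had 71.6 (rank 2361), with 37.6 (rank 1452) in replicate 1 and 34.7 (rank 3719) in replicate 3. The last 3 were thus each among the strongest 2426 in 1 replicate only.

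6 genes of that list (21.4%) had an IDR summit within the gene over 500 bp from its starts, against 4.85% of all genes and 1 of the 54. The list was written with earlier results known and gene lengths were not compared, so its contrasts with all genes are descriptions only. Lk6, a kinase of eIF4E, had the highest, with 783 (rank 5) in an intron at chr3R:11760885-11761230, although its promoter region reached only 60.7 (rank 3123). larp had a further 171 (rank 453), Tctp 90.1 (rank 1590), pAbp, the poly(A)-binding protein, 87.5 (rank 1673), S6k 71.8 (rank 2355) and Paip2 71.1 (rank 2391). In all 11 of the 28 genes had an IDR summit at one place or the other, against 13.9% of all genes, and 17 had none. Lk6 thus had its IDR region in an intron and Thor at the promoter, while eIF4E1 had none at either place.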

How the data were processed

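ChIP-seq region lists of 1 group of 2 biological replicates, made from chromatin sonicated to 200 to 800 bp per the labels, were used on dm6. Each narrowPeak list carries the authors' signal per region, made against a control alignment, and the deposited summit offset in bp (an other quantity, giving position). Neither labels nor headers state the aligner, caller or IDR threshold, and the depth is unknown. The dm3 lists were not used.

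Starts and exons came from Ensembl release 115 (BDGP6.54; 19253 distinct protein-coding starts) and sequences from the RefSeq Release 6 genome. All dm6 regions lie inside its chromosome lengths. Regions were ranked by signal within a list. The gene set, roles, paralogue families and lists were chosen with earlier results of these data known, and no chance test was run. All genes of the set are named. Of the 28 other translation genes those with an IDR summit are named, and 2 were matched by synonym. Code was tested on simulated regions. Python 3.11.15, numpy 2.4.6, scipy 1.17.1 and matplotlib 3.10.9 were used.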

Additional observations from a re-analysis of the deposited data

How the results depend on the processing

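Of 64 alternative values, 17 moved: counts by over 1.5 times, and medians by more than the SD between the replicates' medians. Within those limits, summits nearest to the gene's own start left 8 translation factor genes, 4 initiation factor genes and 4 elongation factor genes with an IDR summit (7.66% of all genes). With only the IDR regions above the median rank, 6 translation factor genes, 2 elongation and release factor genes, 0 broadly used genes and 0 paralogues had a promoter summit (5.51% of all genes). With 1 start per gene, 0 broadly used genes had one, since eEF1alpha1 lost its internal start, and 3 genes had an IDR summit in the body. With a window of 200 bp, 2 genes had a body summit, the initiation median signal was 41.7, and the elongation and release median was 98.7 at rank 1321. The initiation median was 42.2 with 1000 bp and 36.5 with the nearest start only. With either replicate left out, 1 to 2 paralogues had a promoter summit, 1 to 2 genes a body summit, and the elongation and release median rank was 2896 to 4854. Leaving out summits at another gene's start, an alternative chosen after seeing the data, left 6 translation factor genes and 2 initiation factor genes (all genes 4.67%), while elongation stayed at 4. No paired analysis was possible because there is 1 group. Unknown depth limits what a missing region can show.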

Other observations

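The introns of eIF5B held many regions. Of its 24 pooled summits over 500 bp from a start, 19 were intronic, and none reached the IDR list. The strongest intronic regions had 63.9 (rank 2858) and 62.7 (rank 2936), above the promoter region of the gene at 53.4 (rank 3871). At 7.43 per 10 kb over 32.3 kb, eIF5B stood in place 2 by density among the 663 protein-coding genes over 30 kb (median 1.46), and no other protein-coding gene overlaps it. It also stood in place 2 in replicate 3, with 26 summits, and in place 35 in replicate 1, with 17. The other long gene of the set, eIF4EHP, had 16 in each of these lists. eIF5B was picked after its values were seen.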
